A study of Homo sapiens with 6 samples.

Results

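RPL5 and RPL11 are 2 of the 60554 gene identifiers counted in RNA that HCT116 cells held in the free 40S fraction and that an antibody to LARP1 recovered. They were taken by Ensembl identifier, ENSG00000122406.12 for RPL5 and ENSG00000142676.12 for RPL11. Each had reads in all 6 libraries and both passed the filter on low counts, which kept 10788 genes. Reads of both transcripts were far more abundant with the LARP1 antibody than with either control. RPL5 was 6.41-fold and RPL11 13.7-fold above the control immunoprecipitate, and RPL5 was 7.25-fold and RPL11 8.67-fold above the unselected RNA. These folds hold for the main scaling of the libraries (TMM), and other scalings changed their size.

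The samples were HCT116 cells, an established human colorectal carcinoma line, with no treatment or genotype change named in the labels. The LARP1 IP group (n = 2) is RNA immunoprecipitated with anti-LARP1 antibody. The IgG IP group (n = 2) is RNA recovered with normal rabbit serum IgG, and measures background. The Input group (n = 2) is RNA of the same gradient fraction with no antibody. The series text calls that fraction free 40S, meaning small ribosomal subunits outside assembled ribosomes, while the descriptions of the samples call it 40S monosome. The labels call the libraries of a group biological replicates and do not say how the cultures were separated. The p-values therefore rest on the spread between these libraries, where the fit shares information on spread among all tested genes. The line could not be checked against epithelial markers, because the count files hold identifiers without gene symbols.

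RPL5 (uL18) and RPL11 (uL5) are proteins of the large ribosomal subunit. With 5S rRNA they form the 5S ribonucleoprotein particle, which is built before it joins the maturing large subunit. When ribosome assembly is disturbed, the free particle binds MDM2, the ubiquitin ligase that keeps p53 low, and p53 then accumulates. HCT116 cells carry wild-type p53. LARP1 binds mRNAs whose 5′ end is a terminal oligopyrimidine (TOP) motif, a cytidine at the cap followed by an unbroken run of pyrimidines, and ribosomal protein mRNAs are the classic members of this class. The question for this pair is whether both mRNAs were recovered with LARP1, and to the same extent.

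Libraries held 4135463 to 8069554 counts. The 2 most abundant genes of the series took 21.3% to 26.6% of the LARP1 IP libraries, 70.9% to 71.5% of the IgG IP and 87.9% to 88.6% of Input. That left 752862 and 778680 counts for all other genes in Input, the shallowest group. The smallest count of the pair was still 907, for RPL5 in Input replicate 2, with a 95% exact Poisson interval of 849 to 968 that covers counting error only. The half-width of such intervals was at most 6.56% of the count, and the counts of RPL11 in the 2 Input libraries, 1206 and 1160, had overlapping intervals.

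In the RefSeq annotation of GRCh38.p14 both genes lie on chromosome 1, RPL11 at chr1:23691779-23696835 and RPL5 at chr1:92831986-92841924. RPL11 has no other listed gene within its span. RPL5 holds the small nucleolar RNA genes SNORD21 (chr1:92837289-92837383) and SNORA66 (chr1:92840719-92840851), and the protein-coding gene DIPK1A shares 9196 bases with it. RefSeq lists 35 numbered RPL5 pseudogenes on 14 chromosomes and 5 RPL11 pseudogenes on 4. How the authors counted reads that fit several genes is not given in the sources used here, and reads shared with these copies or with DIPK1A could not be assessed.

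The downstream of the 2 annotated RPL11 starts shows the feature LARP1 is known to read, and the upstream one does not. RefSeq gives RPL11 2 start sites on the plus strand, 23691779 and 23691806. The 30 bases from 12 before each start to 18 from it are shown 5′ to 3′, with the longest run of pyrimidines in capitals.
RPL11 at 23691779: CTCCTggcccataaggccctcggccggaag
RPL11 at 23691806: aagctccgCTTTCTCTTCCTgctctccatc
The upstream start opens with A and its longest pyrimidine run, of 5 bases, lies before the start. The downstream start opens with C inside a run of 12 pyrimidines at chr1:23691802-23691813, and its window ends at the base before the ATG. A start with C followed by at least 4 pyrimidines, read on the sense strand only, was found for 5.14% of the 27305 genes with a RefSeq promoter entry. Among 79 ribosomal protein symbols, 63 had an entry, and 74.6% of them had such a start. A run of 12 or more pyrimidines in this window was found for 3.68% of all genes and 49.2% of the 63. These matches describe the annotated letters and are not a measurement of LARP1 contact.

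RPL5 stood at 2622 and 1886 CPM in LARP1 IP replicates 1 and 2, where CPM is the count scaled to library size after TMM adjustment. It stood at 391.0 and 312.6 CPM in the IgG IP and at 340.2 and 281.5 CPM in Input. Both LARP1 IP libraries were above all 4 control libraries, and the 2 control groups overlapped. From Input to IgG IP to LARP1 IP, the means were 311 ± 41.5, 352 ± 55.4 and 2254 ± 521 CPM (SD, n = 2 each), and the first 2 do not differ beyond their spread. Over single pairs of libraries, RPL5 was 4.82-fold to 8.39-fold above the IgG IP and 5.54-fold to 9.31-fold above Input. The log2 fold change was 2.68 ± 0.41 (SE) over the IgG IP and 2.86 ± 0.42 over Input (edgeR quasi-likelihood test, Benjamini-Hochberg adjusted p = 0.00114 and 0.00116 over all tested genes).

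RPL11 stood at 2436 and 4191 CPM in LARP1 IP replicates 1 and 2. It stood at 188.8 and 293.5 CPM in the IgG IP and at 404.6 and 360.1 CPM in Input. Again both LARP1 IP libraries were above all 4 control libraries, and here the IgG IP libraries lay below both Input libraries. From IgG IP to Input to LARP1 IP, the means were 241 ± 74.1, 382 ± 31.5 and 3314 ± 1241 CPM (SD, n = 2 each). Over single pairs of libraries, RPL11 was 8.30-fold to 22.2-fold above the IgG IP and 6.02-fold to 11.6-fold above Input. The log2 fold change was 3.78 ± 0.47 (SE) over the IgG IP and 3.12 ± 0.45 over Input (edgeR adjusted p = 0.000257 and 0.00116).

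**Figure D1:**
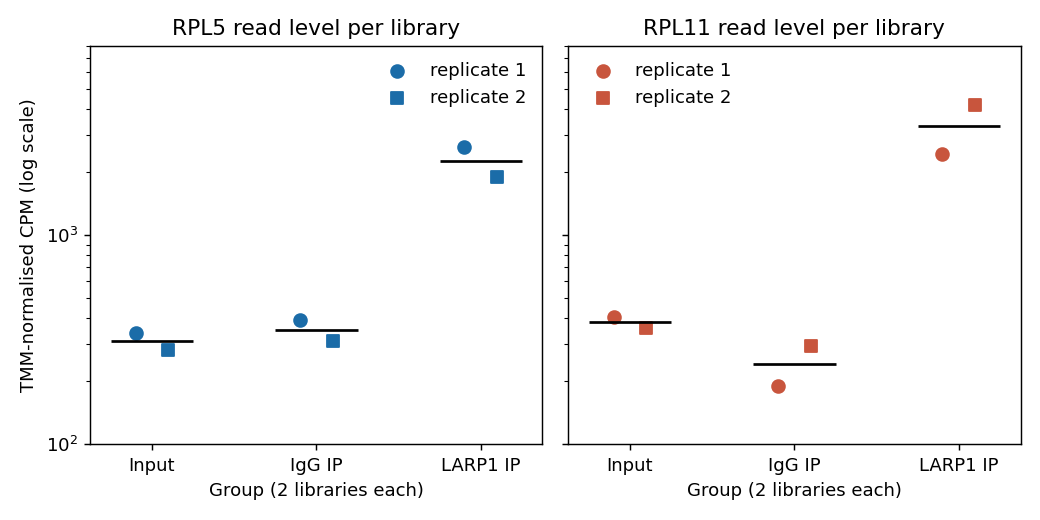
TMM-normalised CPM (log axis) of RPL5 and RPL11 in each of the 6 libraries, with circles for replicate 1, squares for replicate 2 and bars for the mean of a group. All LARP1 IP points lie at 1886 CPM or above, and all control points at 404.6 CPM or below.

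These calls have to be read against how many genes were called. Against the IgG IP, 8.54% of all tested genes were higher in the LARP1 IP at an adjusted p under 0.05, and in 27.3% of genes both LARP1 IP libraries were above both IgG libraries. Against Input the shares were 4.63% and 28.8%, so non-overlap of 2 libraries with 2 is a common event here, and the 2 comparisons share the LARP1 IP libraries. Over the IgG IP, 1.38% of tested genes had a higher fold change than RPL11 and 3.55% a higher one than RPL5. Over Input the shares were 2.20% and 2.72%. Both genes were thus in the upper tail of all genes in either comparison, with medians of all genes at -0.06 and 0.03 on the log2 scale.

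The Input comparison depended on both Input libraries. By edgeR, the log2 fold change of RPL5 over Input was 3.04 without Input replicate 1 (adjusted p = 0.0699) and 2.74 without Input replicate 2 (adjusted p = 0.099). That of RPL11 was 3.21 (adjusted p = 0.0689) and 3.04 (adjusted p = 0.0986), and edgeR called 0 genes of the whole table higher in either of these fits. DESeq2, run on the same libraries, kept both genes past the threshold in each case, with its largest adjusted p at 2.90e-05. Over the IgG IP, both genes passed with every library left out in turn.

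**Figure D2:**
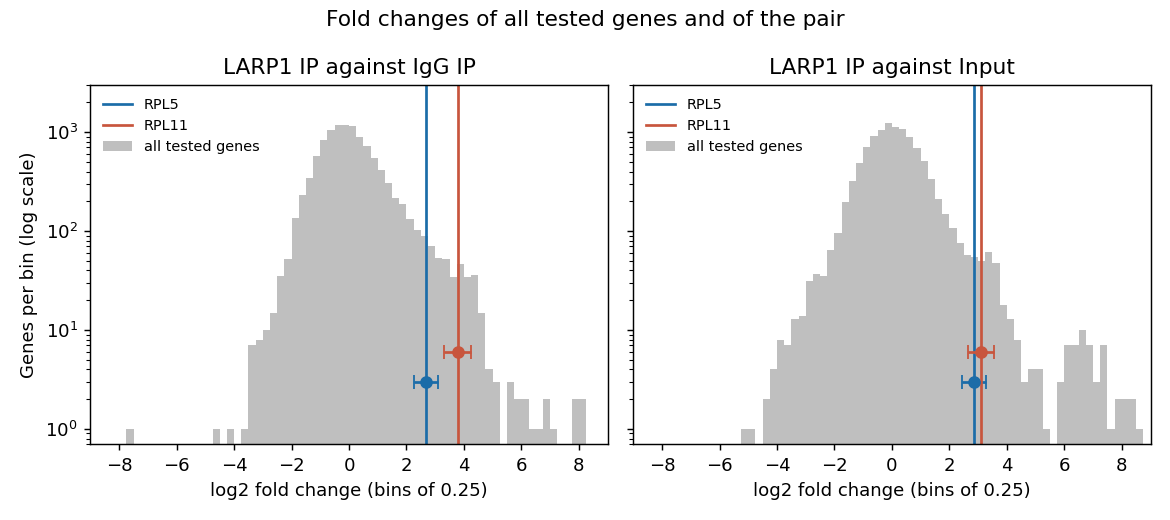
Number of tested genes (log axis) per bin of 0.25 in log2 fold change, for the LARP1 IP against the IgG IP (left) and against Input (right), with lines at RPL5 and RPL11 and bars for their SE. RPL5 at 2.68 and 2.86 and RPL11 at 3.78 and 3.12 lie to the right of the bulk, whose median is -0.06 and 0.03.

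The pair fell on different sides of 8-fold with TMM scaling. Of all tested genes, 4.37% were called above both controls, and RPL5 and RPL11 were among them. A smaller group of 106 genes (0.983% of those tested) exceeded both controls by more than 8-fold and had a mean of at least 10 CPM after LARP1 recovery. RPL11 belonged to it, at place 78 by fold over the IgG IP and place 92 by fold over Input. RPL5 did not, with 6.41-fold and 7.25-fold. The median log2 fold changes of the 106 genes, 4.03 and 3.43, were above the values of RPL11. They say nothing on RPL5, since the cut that left it out places them above it by construction. The SE of RPL5 and that of RPL11 over Input reach across the 8-fold line, at 3 on the log2 scale, so the side of the line can change with the setting. RPL11 over Input was below the line with upper-quartile factors (2.98), with the filter at 50 counts (2.96), without LARP1 IP replicate 2 (2.69; 2.69 also by DESeq2), by DESeq2 without Input replicate 2 (2.97) and with library totals taken without the 2 most abundant genes (2.07). In the last of these RPL11 over the IgG IP was also below it (2.54). RPL5 over Input was above it with total counts (4.63), without a low-count filter (3.03), without Input replicate 1 (3.04) and without LARP1 IP replicate 2 (3.09; 3.10 by DESeq2), while RPL5 over the IgG IP was below it in every alternative run.

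Between the 2 controls neither transcript passed the threshold. In the IgG IP against Input, RPL5 had a log2 fold change of 0.18 ± 0.39 (SE; edgeR adjusted p = 0.961). RPL11 had -0.67 ± 0.42 (edgeR adjusted p = 0.801), and its IgG IP libraries were both below its Input libraries, as in 19.3% of tested genes. By edgeR 0% of genes were called in either direction, with 725 at an unadjusted p under 0.05, while DESeq2 called 19 higher and 19 lower, neither member among them (adjusted p = 0.935 for RPL5 and 0.536 for RPL11). Scaling by total counts moved the median of all genes to 1.51, and there RPL5 had 1.72 (edgeR adjusted p = 0.00985) and RPL11 turned to 0.83 (adjusted p = 0.0253). Relative to that median RPL5 was at 0.20 and RPL11 at -0.68, which repeats the TMM values by construction, since scaling moves all genes by about the same amount.

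Whether RPL11 was recovered to a greater extent than RPL5 was asked with the ratio of their counts inside each library, which needs no scaling between libraries. The ratio is not a ratio of molecules, since transcript length was not accounted for, but length cancels when libraries are compared. In Input there were 1.19 and 1.28 RPL11 reads per RPL5 read in replicates 1 and 2. In the IgG IP there were 0.483 and 0.939. In the LARP1 IP there were 0.929 and 2.22. Input replicates were nearly alike, whereas replicate 2 had 1.94 times the ratio of replicate 1 in the IgG IP and 2.39 times in the LARP1 IP.

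On the log2 scale the ratio averaged 0.30 ± 0.07 in Input, -0.57 ± 0.68 with IgG and 0.52 ± 0.89 with LARP1 (SD, n = 2 each). The LARP1 IP exceeded the IgG IP by 1.09, more than the SD of either group, while the ranges of the groups overlapped (exact two-sided permutation test, p = 0.667). It exceeded Input by 0.22, with Input between the 2 LARP1 IP libraries (exact permutation p = 1). The IgG IP was below Input by a log2 difference of -0.87 with no overlap (exact permutation p = 0.333). That is the smallest p that 2 against 2 allows, so none of these tests could reach the threshold, and whether RPL11 was recovered to a greater extent than RPL5 is not settled by them. Without LARP1 IP replicate 2 the difference from Input turned to -0.41, and without replicate 1 it was 0.85.

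**Figure D3:**
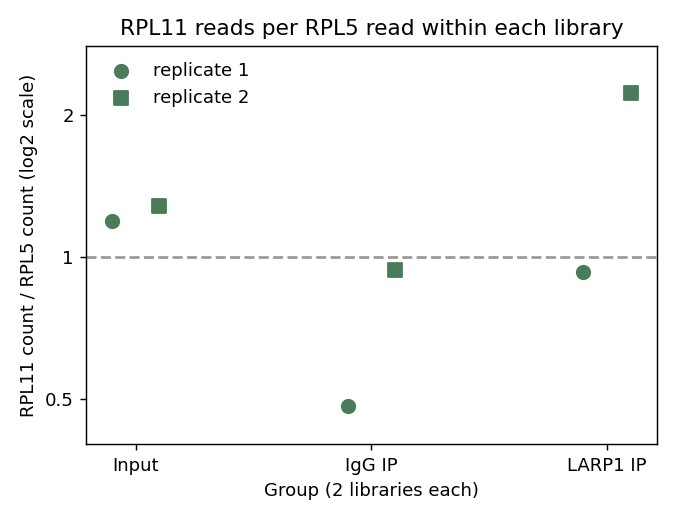
RPL11 count divided by RPL5 count (log2 axis) in each library, with circles for replicate 1, squares for replicate 2 and a dashed line at equal counts. The Input libraries sit together at 1.19 and 1.28, while the libraries of each immunoprecipitate are far apart, at 0.483 and 0.939 for IgG and 0.929 and 2.22 for LARP1.

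With TMM scaling, the disagreement between replicates came from both genes. Between LARP1 IP replicates 1 and 2, RPL5 differed by 0.48 on the log2 scale and RPL11 by -0.78, so RPL5 was higher in the library where RPL11 was lower. The same held in the IgG IP, with 0.32 for RPL5 and -0.64 for RPL11. In Input both were higher in replicate 1, by 0.27 and 0.17. The split between the genes depended on the scaling. As shares of the counts outside the 2 most abundant genes, RPL5 had 0.654% and 0.311% in LARP1 IP replicates 1 and 2. RPL11 had 0.607% and 0.692%, so RPL5 moved more, the reverse of the TMM order. Taken singly, neither gene had a TMM difference of unusual size. Of the 266 genes with a LARP1 IP level of at least 100 CPM, 68.4% (RPL5) and 41.4% (RPL11) differed more between its replicates. Whether such opposed movement of 2 genes is usual was not tested.

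The genes most like each member over the 6 libraries were listed as a description. Likeness was the Euclidean distance between log2 CPM profiles, each centred on its own mean, among genes with a mean of 10 CPM or more. It uses the same libraries as the fold changes, so near neighbours share the fold of their member by choice. The gene nearest to RPL11 was ENSG00000175061.17 at a distance of 0.218, and the nearest to RPL5 was ENSG00000140612.13 at 0.551. The 5 genes nearest to RPL11 all belonged to the 106 genes over 8-fold above both controls, with log2 fold changes of 3.84 to 4.09 over the IgG IP. Of the 5 nearest to RPL5, 1 belonged to them, and the log2 fold changes of these 5 over the IgG IP ran from 2.59 to 3.25. Over Input the ranges overlapped, at 3.04 to 3.27 for the genes nearest to RPL11 and 2.39 to 3.16 for those nearest to RPL5. RPL5 and RPL11 were 1.61 apart, which made RPL11 the 230th nearest of 3064 genes to RPL5 and RPL5 the 223rd nearest to RPL11, against median distances of 3.15 and 4.01. The count files pair no symbol with these identifiers, so the neighbours are not named.

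The size of the folds depended on how the libraries were scaled. Library totals taken without the 2 most abundant genes gave log2 fold changes of 1.53 for RPL5 and 2.54 for RPL11 over the IgG IP, and 1.94 and 2.07 over Input. Total counts of all genes gave 4.63 and 4.77 over Input. These settings moved the median of all genes over Input to -0.92 and 1.75. Scaling moves all genes by about the same amount, so the distance from the median of all genes is nearly fixed by construction: RPL5 was between 2.74 and 2.77 over the IgG IP and between 2.82 and 2.87 over Input in the 5 scalings run, and RPL11 between 3.78 and 3.85 and between 2.99 and 3.08. Both genes passed the threshold against both controls in all 5.

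**Figure D4:**
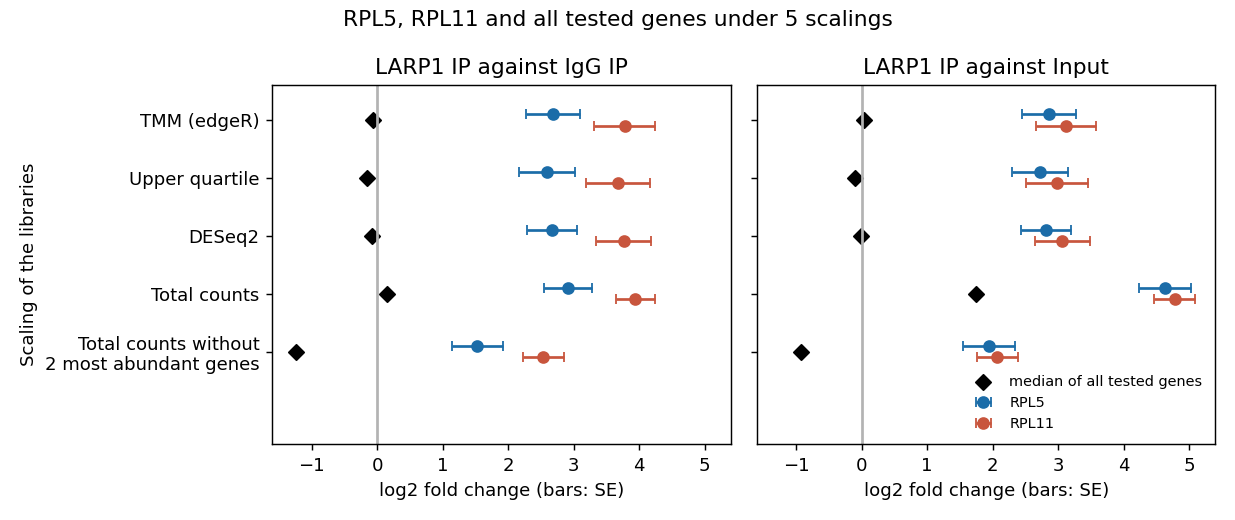
Log2 fold change of RPL5 and RPL11 with SE bars, and the median of all tested genes (diamonds), under 5 scalings of the libraries for the LARP1 IP against the IgG IP (left) and Input (right). The points and the diamond move together, as with total counts over Input, where RPL5 is at 4.63 and the median at 1.75.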

How the data were processed

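Each deposited file holds the authors' read counts per gene for 1 library, as raw whole numbers. The submitters' processing notes name CASAVA 1.8, Bowtie2, TopHat2 2.1.1, Subread 1.20.6, featureCounts and the build GRCh38. Annotation release, strand setting and handling of multi-mapped reads: not given in the sources used here. Per the labels' protocols, a stranded kit was used and poly(A) selection omitted.

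Counts were fitted with edgeR 4.0.16 in R 4.3.3: filterByExpr (minimum count 10), TMM scaling, and 1 quasi-likelihood fit of all 6 libraries on group alone (3 residual degrees of freedom). Adjusted p-values are Benjamini-Hochberg over all 10788 tested genes, with a threshold of 0.05. The SE is the log2 fold change over the root of its F. DESeq2 1.42.0 was an alternative. The fit was tested on simulated data. The pair, the gene lists and the tests were chosen with earlier results of these data known. RPL5 and RPL11 were always named, with the 5 genes nearest to each by profile, printed as at most 2 identifiers. The gene table (RefSeq, GRCh38.p14) gave an Ensembl identifier for 0 of 59792 genes, so the planned lists of ribosomal protein, 5S particle and p53 genes, and the cell type markers, were not applied to the counts. The ribosomal protein list was used by symbol for start sites. RPL5 start-site sequence was not used here.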

Additional observations from a re-analysis of the deposited data

How the results depend on the processing

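Over the IgG IP, RPL5 and RPL11 kept their direction and passed the threshold in all 20 alternatives. Over Input they did so in 18 of 20, the exceptions being the edgeR fits without an Input library. Leaving out each library, log2 fold changes by edgeR were 2.42 to 2.90 (RPL5) and 3.34 to 4.13 (RPL11) over the IgG IP, 2.61 to 3.09 and 2.69 to 3.46 over Input, and 0.01 to 0.31 and -1.04 to -0.38 for the IgG IP against Input. A lone library of a group is then assumed to vary like the others. DESeq2 without each library, chosen after seeing the data, gave 2.40 to 2.92 and 3.36 to 4.10, then 2.56 to 3.10 and 2.69 to 3.42, then -0.041 to 0.31 and -1.05 to -0.43. RPL5 in the IgG IP against Input changed sign near 0 there (-0.041 without IgG replicate 1, -0.00197 without Input replicate 2). Total counts gave 1.72 and 0.83 there. The RPL11 to RPL5 ratio ranged from 0.46 to 1.72, -0.41 to 0.85 and -1.35 to -0.39 over the same 3 comparisons. Beyond construction, the cause was not tested.

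Counts of all genes called higher moved by over 1.5 times from 921 (against IgG) to 356 and from 499 (against Input) to 184 when the 2 most abundant genes left the library totals, to 6566 (Input) with total counts and to 821 (Input) without a low-count filter. Leaving out a library gave 578 to 977 and 0 to 723 by edgeR. With 6 or 4 libraries, genes called lower (247 and 164) ranged from 75 to 3992 and from 27 to 1122 (65 to 307 and 0 to 279 by edgeR with a library left out), and the 0 higher and 0 lower of the IgG IP against Input reached 5816 and 35.

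The groups share replicate numbers but no stated batch. Deviations of same-numbered libraries correlated at 0.135 to 0.508 between groups, a hint only. With a replicate block, RPL5 had 2.67 and 2.85 and RPL11 3.77 and 3.05 over the IgG IP and Input, 0.18 and -0.72 for the IgG IP against Input, and 1526 and 1083 genes were called higher; no call of the pair changed. Within replicate numbers 1 and 2 the log2 RPL11 to RPL5 ratio of the LARP1 IP exceeded that of the IgG IP by 0.94 and 1.24 (mean 1.09). Its difference from Input was -0.36 and 0.80, so the sign changed between replicate numbers. That of the IgG IP from Input was -1.30 and -0.45. The planned count of ribosomal protein genes was not run, since identifiers could not be named. Input, with at most 778680 counts outside the 2 most abundant genes, limits the depth.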

Other observations

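The summed reads of RPL5 and RPL11 took like shares of both controls when the 2 most abundant genes of the series were left out of the total, but not of the whole libraries. This sum was looked at after the single genes were seen. Its likeness between the controls joins opposite differences of the single genes. With those 2 abundant genes left out, RPL5 averaged 0.126% ± 0.013 in Input and 0.167% ± 0.043 with IgG (SD, n = 2 each). RPL11 averaged 0.155% ± 0.0079 in Input and 0.112% ± 0.024 with IgG. As a share of the counts outside the 2 most abundant genes, the pair took 0.293% (95% exact binomial interval 0.285 to 0.300) and 0.266% (0.259 to 0.272) in IgG IP replicates 1 and 2. It took 0.295% (0.283 to 0.307) and 0.265% (0.254 to 0.277) in Input. In the LARP1 IP the shares were 1.26% (1.25 to 1.27) and 1.003% (0.993 to 1.01). The intervals cover counting error only. The group means were 0.280% ± 0.021 for Input, 0.279% ± 0.019 for the IgG IP and 1.13% ± 0.18 for the LARP1 IP (SD, n = 2 each), which put the LARP1 IP at 4.06 times the IgG IP and 4.04 times Input. Of whole libraries, the pair took 0.0328% ± 0.00092 in Input, 0.0805% ± 0.0068 with IgG and 0.858% ± 0.096 with LARP1 (SD, n = 2 each), so that LARP1 was at 26.1 times Input and 10.7 times IgG. In TMM-normalised CPM the means were 693 ± 72.9, 593 ± 18.6 and 5568 ± 720.3 for Input, IgG IP and LARP1 IP, with the LARP1 IP at 8.03 times Input and 9.39 times the IgG IP. No test was run on the sum.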
